A study of Mus musculus with 8 samples.

Results

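The mouse genes that encode subunits of respiratory complexes II, III, IV and V in the nucleus, together with cytochrome c, were examined in the gastrocnemius, a calf muscle. They were the rows of the deposited count table that carry 1 of 41 gene symbols of such subunits or cytochrome c. The list was set with earlier results of these data known. It is not complete and lacks, among others, Cox6a1, Cox4i2, Ndufa4 and Usmg5, which are described below. All 41 symbols were found among 35949 gene rows, 4 of complex II, 9 of complex III, 1 of cytochrome c, 12 of complex IV and 15 of complex V. Every member had at least 553 counts in every library, and all 41 were among the 14064 genes that passed the filter on low counts.

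The muscle came from aged mice that had been given blood-forming stem cells, either cells overexpressing SIRT3, a deacetylase of mitochondria, or control cells. The labels give the genotypes T3TG (n = 4, sample titles that begin with T3) and WT (n = 4, titles that begin with Mx1), read here as the SIRT3 arm and the control arm. In the design text the overexpression is a property of the transplanted cells, and the recipients were aged in both groups. The labels do not state the strain, the sex, the age in months, the construct behind T3TG, or whether each library is a separate mouse, so the p-values below measure the spread between these libraries, which may be technical. The question is whether the transcripts of the respiratory chain in recipient muscle differ with the genotype of the transplanted cells. PolyA-selected RNA was sequenced, and library totals were 16804398 to 28101719 counts in T3TG and 16158429 to 21473384 counts in WT. In T3TG replicates 2 and 3 nearly all counts were even numbers (97.5% and 98.0% of values from 10 to 99), against 50.5% to 52.5% in the other 6 libraries. Results are therefore also given for those 6 libraries. All 15 fixed marker genes of muscle fibers had counts in every library, and their summed level was 123266 to 159470 CPM (counts-per-million values scaled with TMM factors) in T3TG and 145642 to 158728 CPM in WT.

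The respiratory chain sits in the inner membrane of the mitochondrion. Complex II passes electrons from succinate to ubiquinone, complex III passes them from ubiquinol to cytochrome c, and complex IV passes them from cytochrome c to oxygen. Complexes III and IV pump protons, and complex V, the ATP synthase, lets them flow back and makes ATP. All subunits of complex II are encoded in the nucleus, while complexes III, IV and V also hold subunits encoded in mitochondrial DNA. Skeletal muscle uses its own isoforms of several complex IV subunits, among them COX6A2, COX7A1 and, in mice, COX8B, in place of the widely expressed COX6A1, COX7A2 and COX8A.

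The 2 ratios of isoforms below whose values did not overlap between T3TG and WT are those of Cox6a2 to Cox6a1 and of Cox8b to Cox8a, and the coding sequences of these genes are shown from the GENCODE transcripts of the mm10 build without the stop codon (for Cox6a1, bases 1 to 300 of 336). Cox6a2 lies at chr7:128205435-128206387 and Cox6a1 at chr5:115345642-115348981, Cox8b at chr7:140898945-140900446 and Cox8a at chr19:7215153-7217616, all on the minus strand. Capitals mark bases that differ from the other isoform of the pair, or that the other isoform lacks, in a global alignment.
Cox6a2: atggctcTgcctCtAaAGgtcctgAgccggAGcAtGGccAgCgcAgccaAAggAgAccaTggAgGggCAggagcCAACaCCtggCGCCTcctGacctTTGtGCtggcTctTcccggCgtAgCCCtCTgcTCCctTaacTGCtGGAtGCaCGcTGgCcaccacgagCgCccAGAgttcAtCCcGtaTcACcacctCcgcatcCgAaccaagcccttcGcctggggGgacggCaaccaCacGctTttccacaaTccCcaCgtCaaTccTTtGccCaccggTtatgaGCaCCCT
Cox6a1: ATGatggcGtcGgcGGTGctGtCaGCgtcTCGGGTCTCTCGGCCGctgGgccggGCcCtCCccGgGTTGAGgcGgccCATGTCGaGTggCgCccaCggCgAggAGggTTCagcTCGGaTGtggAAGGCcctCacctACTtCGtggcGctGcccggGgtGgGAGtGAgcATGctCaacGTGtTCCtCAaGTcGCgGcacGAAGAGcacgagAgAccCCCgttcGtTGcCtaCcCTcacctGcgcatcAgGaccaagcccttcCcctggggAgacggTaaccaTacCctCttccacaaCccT
Cox8b: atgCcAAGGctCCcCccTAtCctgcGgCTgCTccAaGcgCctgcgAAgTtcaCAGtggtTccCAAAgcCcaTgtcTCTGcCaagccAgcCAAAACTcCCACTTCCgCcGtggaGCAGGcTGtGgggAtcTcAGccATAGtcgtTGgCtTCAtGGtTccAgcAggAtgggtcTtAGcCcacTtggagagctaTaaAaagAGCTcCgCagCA
Cox8a: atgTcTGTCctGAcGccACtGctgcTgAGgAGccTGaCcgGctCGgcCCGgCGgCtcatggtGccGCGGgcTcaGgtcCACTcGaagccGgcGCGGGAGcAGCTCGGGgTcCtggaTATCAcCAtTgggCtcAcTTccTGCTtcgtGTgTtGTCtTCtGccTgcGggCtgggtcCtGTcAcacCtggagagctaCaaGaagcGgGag
Of the aligned bases 64.6% are identical between Cox6a2 and Cox6a1 (188 of 291) and 55.7% between Cox8b and Cox8a (112 of 201). The longest run of identical bases is 12 in the first pair and 10 in the second, so no read of 150 bases from the coding sequence of a gene matches the other isoform exactly.

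No member passed the test between T3TG and WT. With the quasi-likelihood test of edgeR and adjustment over all genes, 0 of 41 members had an adjusted p under 0.05, and the lowest adjusted p was 0.418. In the same test 10 of 14064 genes passed, or 0.0711%, all of them higher in T3TG. That count over all genes was 37 when T3TG replicate 1 was left out, 3 for T3TG replicate 3, 5 for WT replicate 3, 1 for WT replicate 4, and 0 for each of the other 4 libraries. At an unadjusted p under 0.05, 1 member was lower in T3TG (Cox8b), against 2.45% of all genes lower and 5.88% higher at that level (8.33% in both directions). The member count at that level depended on the libraries and settings, with 0 members past the adjusted threshold in each. It was 12 members lower without WT replicate 1 (3.21% of all genes lower), 6 without T3TG replicates 2 and 3 (2.21%), 5 without T3TG replicate 3 (2.62%), 2 without T3TG replicate 2 (2.28%), and 1 with any other single library left out. With a block on the first title number it was 5 (1.2% of all genes lower), with no filter on low counts 4 (2.85%), and with muscle fiber scaling 0. WT replicates 1 and 3 share that number with no other library, so the block leaves them out of the comparison. It sets T3TG replicate 1 against WT replicate 2, and T3TG replicates 2, 3 and 4 against WT replicate 4 alone. In all 41 members the values of the groups overlapped, while across all genes 1.66% had every T3TG library below every WT library and 3.12% every T3TG library above. The DESeq2 Wald test also called 0 members at an adjusted p under 0.05, where 0.793% of all genes were called. At an unadjusted DESeq2 p under 0.05, 3 members were lower (Cox8b, Atp5k and Uqcr10) and 2.62% of all genes were lower.

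The direction of the fitted values was nonetheless nearly uniform. The log2 fold change, T3TG minus WT, was below 0 in 40 of 41 members with TMM scaling, in 37 of 41 with scaling by library totals, and in 28 of 41 when libraries were scaled by their summed muscle fiber markers. Among all genes tested 50.9% were below 0. The median over the members was -0.12 (a difference of -8.17%), against -0.0043 over all genes. Of the 3686 genes at least as abundant in CPM as the lowest member, members included, 67.8% were below 0, with a median of -0.0465. Without T3TG replicates 2 and 3 the members had a median of -0.16, with 39 of 41 below 0. Members are not independent replicates, and no test over the group was made. In bulk tissue fewer cells of a type and less RNA per cell cannot be told apart.

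**Figure D1:**
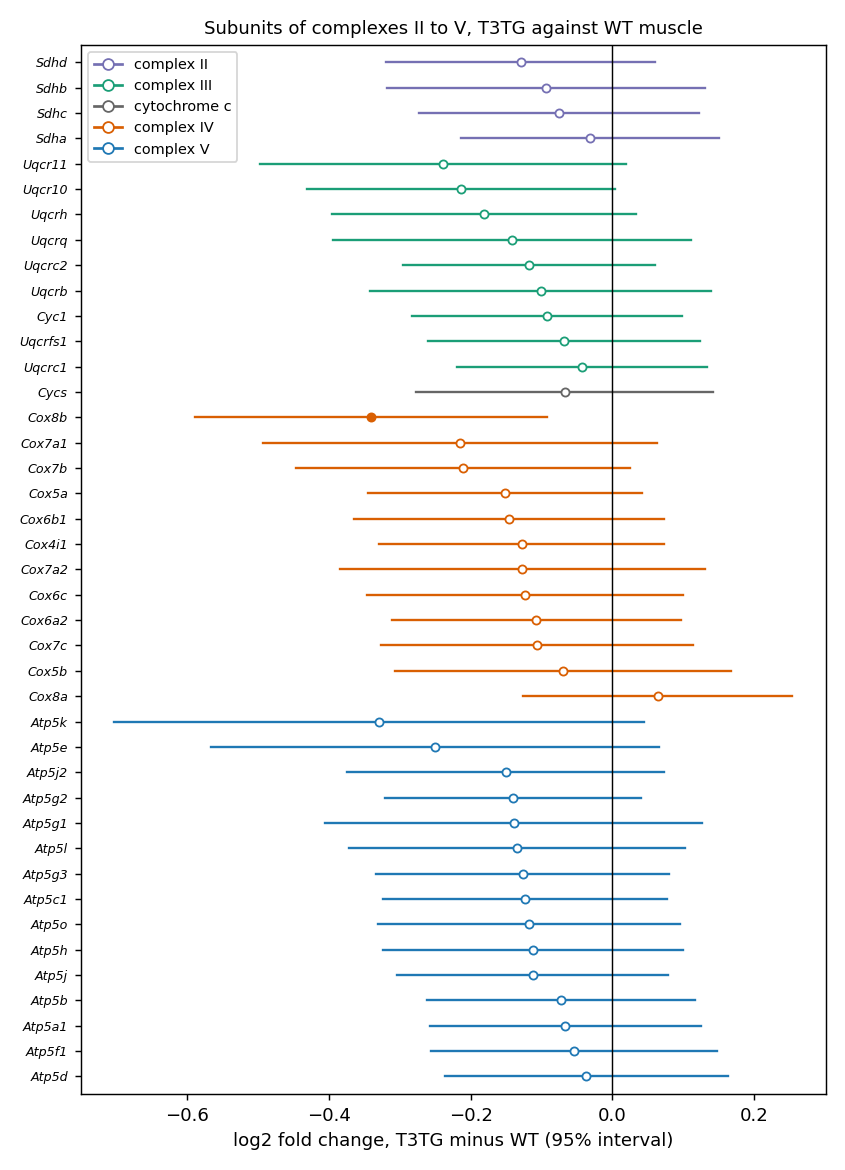
Log2 fold changes of the 41 members, T3TG minus WT, with 95% intervals from the edgeR fit over 8 libraries. Colours mark the complexes, and the filled point (Cox8b) is the member with an unadjusted p under 0.05. All other intervals include 0, and Cox8a alone has a point above 0 (with TMM scaling).

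The spread between WT libraries was as large as the difference between the groups. The mean log2 CPM of the 41 members, relative to the WT mean, was -0.10, -0.17, -0.01 and -0.21 in T3TG replicates 1 to 4, against -0.19, -0.08, 0.13 and 0.13 in WT replicates 1 to 4. WT replicates 3 and 4 stood above all other libraries, and WT replicate 1 stood below T3TG replicates 1, 2 and 3. The highest value of a member was in WT replicate 3 for 22 members and in WT replicate 4 for 17. The lowest was in T3TG replicate 4 for 15, T3TG replicate 2 for 12 and WT replicate 1 for 8. As a share of all counts the members made up 2.01% ± 0.104 in T3TG and 2.09% ± 0.187 in WT (SD, n = 4 each). The median log2 fold change of the members was -0.07 without WT replicate 3 and -0.18 without WT replicate 1.

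**Figure D2:**
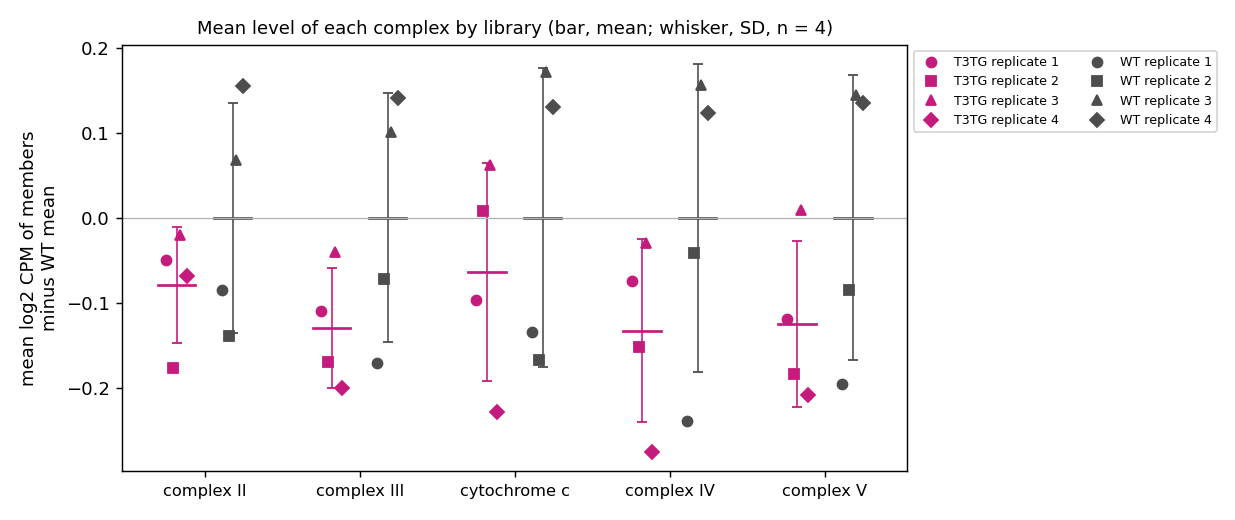
Mean log2 CPM of the members of each complex in each library, minus the WT mean of that complex. T3TG libraries are on the left and WT libraries on the right of each pair, bars are means and whiskers SD (n = 4). WT replicates 3 and 4 are the highest libraries in every complex, and WT replicate 1 lies among or below the T3TG libraries in complexes II to V.

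The 4 subunits of complex II, succinate dehydrogenase, had a median log2 fold change of -0.08 (a difference of -5.70%), with all 4 below 0 under TMM scaling, and it was 0.01 with scaling by muscle fiber markers, -0.02 without WT replicate 4 and -0.15 without WT replicate 2. Sdha, the flavoprotein that oxidises succinate, had 794, 714, 769 and 873 CPM in T3TG, against 777, 806, 802 and 837 CPM in WT. The T3TG libraries included both the lowest and the highest value. Its log2 fold change was -0.03 (SE 0.09) with an interval from -0.21 to 0.15, and it was 0.05 in the 6 libraries. Sdhb, the iron-sulfur subunit, had 479, 434, 531 and 443 CPM in T3TG, against 475, 422, 534 and 583 CPM in WT. Here WT libraries held both extremes. Of the membrane anchors, Sdhc was at -0.08 (SE 0.09) and Sdhd at -0.13 (SE 0.09). Sdhd had 243, 222, 255 and 240 CPM in T3TG, against 238, 241, 288 and 283 CPM in WT, so that only WT replicates 3 and 4 stood above all T3TG libraries. Sdhc had 301, 285, 290 and 284 CPM in T3TG, against 288, 265, 313 and 356 CPM in WT, and the T3TG values lay within the WT range.

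In complex III, the cytochrome bc1 complex, fitted values ran from -0.24 (Uqcr11) to -0.043 (Uqcrc1). The median of its 9 nuclear subunits was -0.12 (a difference of -7.86%), and all 9 were below 0 with TMM scaling. Without WT replicate 1 it was -0.18. Uqcrc1, a core subunit and the most abundant member of this complex in CPM, had 857, 803, 824 and 859 CPM in T3TG, against 859, 792, 861 and 931 CPM in WT (log2 fold change -0.04, SE 0.08, and 0.01 with scaling by library totals). Uqcrfs1, the Rieske iron-sulfur protein, had 519, 457, 541 and 496 CPM in T3TG, against 514, 477, 527 and 591 CPM in WT. In these subunits the groups overlapped widely. Uqcr11, a small accessory subunit, had 166, 130, 171 and 149 CPM in T3TG, against 139, 188, 194 and 206 CPM in WT, and 3 WT libraries stood above all T3TG libraries (log2 fold change -0.24, SE 0.12, edgeR adjusted p = 0.639). Uqcr10, another small subunit, had 244, 284, 282 and 239 CPM in T3TG, against 256, 290, 343 and 329 CPM in WT. Again 3 WT libraries were above all T3TG libraries (-0.21, SE 0.10, edgeR adjusted p = 0.610), and without T3TG replicates 2 and 3 it stood at -0.33. Uqcrh, the hinge protein that helps cytochrome c1 pair with cytochrome c, had 251, 240, 280 and 208 CPM in T3TG, against 246, 265, 306 and 293 CPM in WT (-0.18, SE 0.10). The other 4 subunits, Uqcrb, Uqcrc2, Uqcrq and Cyc1, lay between -0.14 and -0.09.

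Cycs, the somatic cytochrome c that carries electrons between complexes III and IV, had 225, 242, 251 and 205 CPM in T3TG, against 219, 214, 271 and 264 CPM in WT. WT replicates 3 and 4 were highest and T3TG replicate 4 lowest. Its difference was -0.07 (log2, SE 0.10), and the interval from -0.28 to 0.14 spans T3TG differences from -17.5% to 10.4%. Of the 150-base windows of its transcript 21.8% occur without mismatch in annotated transcripts of other genes. Part of its reads may therefore not be placed uniquely, and alignments were not examined. Cyct, the testis cytochrome c, had 0 counts in every library.

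Complex IV, cytochrome c oxidase, held both the member with the lowest p and the member with the opposite sign. The median of its 12 nuclear subunits was -0.13 (a difference of -8.46%), with 11 of 12 below 0 under TMM scaling. Without WT replicate 1 it was -0.20. Cox8b, the muscle form of a small subunit, had 341, 379, 355 and 293 CPM in T3TG, against 337, 458, 505 and 431 CPM in WT. WT replicates 2, 3 and 4 were above all T3TG libraries, and WT replicate 1 fell inside the T3TG range. Its fitted difference was -0.34 (log2, SE 0.12), that is -21.0% with an interval from -33.5% to -6.15%. The unadjusted edgeR p was 0.0106 and the edgeR adjusted p was 0.418. In the 6 libraries it was -0.45. Cox8a, the widely expressed counterpart, had 38.1, 36.6, 37.5 and 35.2 CPM in T3TG, against 31.2, 34.0, 37.0 and 38.8 CPM in WT, with T3TG values inside the WT range (0.06, SE 0.09).

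The other subunits of complex IV lay between. Cox6a2, the muscle form of a subunit at the dimer interface, had 919, 904, 1023 and 948 CPM in T3TG, against 892, 1054, 969 and 1172 CPM in WT (log2 fold change -0.11, SE 0.10). The WT libraries spanned the T3TG range. Its counterpart Cox6a1, which is not among the 41, had 32.8, 43.6, 39.4 and 37.8 CPM in T3TG, against 24.5, 30.4, 31.9 and 38.5 CPM in WT, so that only WT replicate 4 reached the T3TG range. Its log2 fold change was 0.29 (SE 0.13), with an unadjusted p of 0.0357 and an edgeR adjusted p of 0.561. Leaving out T3TG replicates 2 and 3 gave 0.17, leaving out WT replicate 1 gave 0.18, and the block on the first title number gave 0.082. Cox4i1, a subunit through which ATP regulates the enzyme, had 735, 706, 736 and 655 CPM in T3TG, against 675, 726, 864 and 830 CPM in WT (-0.13, SE 0.09). Cox5a, which holds a site for thyroid hormone T2 in cattle, had 425, 410, 433 and 399 CPM in T3TG, against 405, 433, 506 and 507 CPM in WT (-0.15, SE 0.09). In both, WT replicates 3 and 4 were above all T3TG libraries. Cox7b, a small subunit encoded on the X chromosome, had 284, 301, 295 and 237 CPM in T3TG, against 265, 304, 378 and 345 CPM in WT (-0.21, SE 0.11). The isoforms Cox7a1 (muscle) and Cox7a2 (widely expressed) had -0.21 (SE 0.13) and -0.13 (SE 0.12). Without WT replicate 3 they were at -0.10 and -0.036, and without WT replicate 1 at -0.33 and -0.22. Cox7a1 had 214, 182, 197 and 162 CPM in T3TG, against 166, 218, 268 and 224 CPM in WT, and WT replicate 1 was the only WT library inside the T3TG range. Cox7a2 had 186, 159, 188 and 157 CPM in T3TG, against 155, 161, 223 and 213 CPM in WT. The other 4 subunits, Cox5b, Cox6b1, Cox6c and Cox7c, lay between -0.15 and -0.07.

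Ratios of isoforms within a library do not depend on how libraries are scaled, and 5 were compared. Cox8b counts were 8.93, 10.3, 9.46 and 8.31 times those of Cox8a in T3TG replicates 1 to 4, against 10.8, 13.5, 13.6 and 11.1 times in WT replicates 1 to 4. Every T3TG library lay below every WT library. On the log2 scale the ratio was 3.21 ± 0.134 in T3TG and 3.61 ± 0.178 in WT (SD, n = 4 each), a difference of -0.40 (SE 0.11). The two-sided exact permutation p was 0.0286, the smallest that 4 against 4 libraries can give, and 0.0714 after adjustment over the 5 ratios, so the difference did not pass. Cox8b was known from an earlier analysis of these data to have a low value in T3TG, so this ratio is not independent of it.

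The ratio of Cox6a2 to Cox6a1 did not overlap between the groups either. Cox6a2 counts were 28.0, 20.7, 25.9 and 25.0 times those of Cox6a1 in T3TG replicates 1 to 4, against 36.3, 34.6, 30.3 and 30.4 times in WT replicates 1 to 4. The log2 ratio was 4.63 ± 0.184 in T3TG and 5.04 ± 0.132 in WT (SD, n = 4 each), a difference of -0.40 (SE 0.11) with an exact permutation p of 0.0286 and an adjusted p of 0.0714. In the 6 libraries the differences were -0.31 for Cox6a2/Cox6a1 and -0.50 for Cox8b/Cox8a. The remaining 3 ratios overlapped between the groups. Cox7a1/Cox7a2 differed by -0.09 (SE 0.09, exact permutation p = 0.400), and Atp5g1/Atp5g3, a pair of genes for the same ATP synthase subunit, by -0.0079 (SE 0.07, exact permutation p = 0.943). Cox4i2, an isoform known from lung and smooth muscle, was at 1.33 to 5.13 CPM in T3TG and 2.41 to 3.61 CPM in WT, and its ratio to Cox4i1 differed by -0.02 (SE 0.40, exact permutation p = 0.943).

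**Figure D3:**
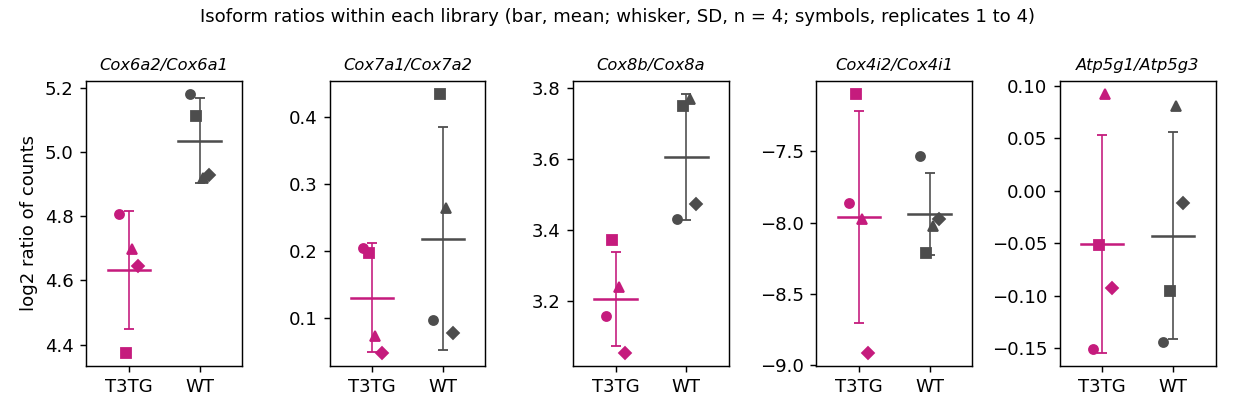
Log2 ratios of counts within each library for 5 isoform pairs, T3TG on the left and WT on the right, with means as bars and SD as whiskers (n = 4). In Cox6a2/Cox6a1 and Cox8b/Cox8a every T3TG library lies below every WT library, and in the other 3 pairs the groups overlap.

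Marker sums of fibroblasts, endothelial cells and macrophages did not overlap between T3TG and WT, while those of adipocytes and red cells did. The summed level of 10 fibroblast and fibro-adipogenic progenitor markers was 2107 to 2560 CPM in T3TG and 1566 to 1939 CPM in WT, with no overlap, and 10 of 10 had a higher value in T3TG. The 7 endothelial markers summed to 384 to 450 CPM in T3TG and 279 to 368 CPM in WT, and the 8 macrophage markers to 217 to 386 CPM in T3TG and 165 to 210 CPM in WT, also without overlap. No marker of these lists was at 0 in any library. The 15 muscle fiber markers were below 0 in 15 of 15, with a median log2 fold change of -0.14, close to the -0.12 of the respiratory members. The 9 slow and oxidative fiber markers summed to 4240 to 6221 CPM in T3TG and 4409 to 7386 CPM in WT, with 8 of 9 below 0 and a median of -0.10. Of that sum Myh2 alone was 1994 to 3157 CPM in T3TG and 2288 to 3189 CPM in WT. Adipocyte markers summed to 161 to 272 CPM in T3TG and 152 to 211 CPM in WT. Most of that sum was Fabp4, at 145 to 223 CPM in T3TG and 136 to 199 CPM in WT. All 6 tested adipocyte markers had a higher value in T3TG, with a median log2 fold change of 1.62. The lowest edgeR adjusted p among them was 0.380 (Cebpa). Red cell markers summed to 67.6 to 523 CPM in T3TG and 70.6 to 133 CPM in WT, with T3TG replicate 3 as the highest. The part of cell composition in the isoform ratios was not tested. Scaling by the muscle fiber markers raised the median of all genes by 0.10 and left the members at a median of -0.02. That is -0.12 relative to all genes, with 40 of 41 below the median of all genes, the same as under TMM scaling. A change of scaling shifts all genes nearly alike, so this step cannot test the part of fiber content in the members.

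**Figure D4:**
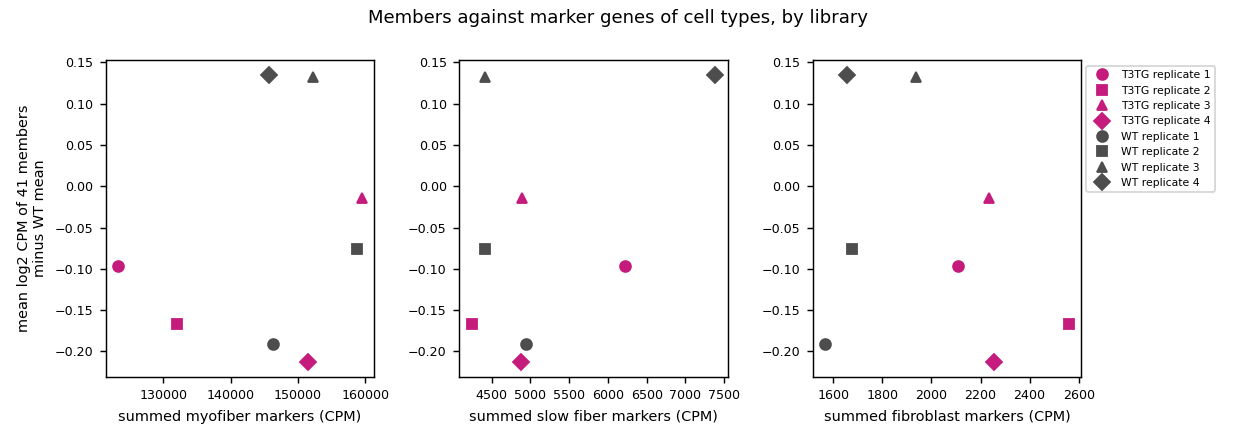
Mean log2 CPM of the 41 members minus the WT mean, against summed CPM of marker genes, with 1 point for each library. The markers are those of muscle fibers, of slow and oxidative fibers (labelled slow fiber markers) and of fibroblasts. The fibroblast sums of the T3TG libraries lie to the right of all WT libraries, while the sums of both fiber lists overlap between the groups.

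In complex V fitted values ran from -0.33 (Atp5k) to -0.037 (Atp5d, the delta subunit of the central stalk). The median of the 15 subunits was -0.12 (a difference of -8.17%), with all 15 below 0 under TMM scaling. Without WT replicate 3 it was -0.07. Atp5b, the catalytic beta subunit and the most abundant of all 41 members in CPM, had 2868, 2563, 2758 and 2834 CPM in T3TG, against 2798, 2723, 2901 and 3172 CPM in WT. Atp5a1, the alpha subunit, had 2259, 2077, 2266 and 2439 CPM in T3TG, against 2284, 2218, 2393 and 2569 CPM in WT. In both genes T3TG replicate 2 was the lowest library and WT replicate 4 the highest. Their log2 fold changes were -0.07 (SE 0.09) each, with intervals that run from -16.6% to 8.39% for Atp5b and from -16.3% to 9.03% for Atp5a1. In the 6 libraries they were -0.02 and -0.01, and with scaling by muscle fiber markers both were at 0.03.

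Atp5k, the e subunit of the membrane part, which takes part in pairing ATP synthases into dimers, had 71.3, 64.9, 85.6 and 60.6 CPM in T3TG, against 60.2, 103, 99.5 and 92.8 CPM in WT. Here 3 WT libraries were above all T3TG libraries and WT replicate 1 was below them (log2 fold change -0.33, SE 0.17, edgeR adjusted p = 0.654). Atp5e, the epsilon subunit of the central stalk, had 452, 372, 487 and 384 CPM in T3TG, against 360, 495, 596 and 567 CPM in WT, the same order of the groups (-0.25, SE 0.15, edgeR adjusted p = 0.687). Without WT replicate 1 the values were -0.48 for Atp5k and -0.39 for Atp5e.

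Atp5g1, Atp5g2 and Atp5g3 each encode the c subunit of the proton-driven ring, with different import sequences. Their log2 fold changes were alike at -0.14 (SE 0.12), -0.14 (SE 0.09) and -0.13 (SE 0.10). Atp5g1 had 415, 380, 508 and 399 CPM in T3TG, against 376, 428, 547 and 525 CPM in WT. Atp5g3 had 461, 394, 476 and 426 CPM in T3TG, against 415, 457, 517 and 529 CPM in WT. Atp5g2 had 182, 170, 191 and 179 CPM in T3TG, against 178, 189, 213 and 214 CPM in WT. In all 3 genes WT replicates 3 and 4 were the highest libraries. The values of Atp5g2 are uncertain, since 85.2% of the 150-base windows of its transcript also occur in annotated transcripts of other genes. The same holds for 44.6% of the windows of Atp5l, 24.6% of Cox7c, 16.9% of Atp5h and 5.15% of Atp5g1, and besides Cycs no other member shares windows with genes elsewhere in the genome. Windows shared with an annotated gene that overlaps the same locus made up 20.5% of Uqcrc2 (Pdzd9), 2.96% of Atp5f1 (Wdr77), 2.47% of Atp5o (D430001F17Rik) and 0.812% of Cox4i1 (Emc8). Besides these, the subunits Atp5c1, Atp5d, Atp5f1, Atp5h, Atp5j, Atp5j2, Atp5l and Atp5o lay between -0.15 and -0.04.

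Levels between genes were compared per length, as CPM per kb of the principal GENCODE transcript over all 8 libraries. Atp5b (1475 ± 90.8) and Cox6a2 (1449 ± 139) led and did not differ beyond their spread. Atp5e (1103 ± 211), Cox8b (1076 ± 198), Cox4i1 (968 ± 94.1) and Atp5a1 (936 ± 60.9) followed, also within each other's spread (SD, n = 8). The lowest member was Cox8a at 65.6 ± 4.54 CPM per kb, close to Cox6a1 at 61.1 ± 10.6 CPM per kb. Cox7a1 and Cox7a2 were closer to each other, at 519 ± 89.0 and 273 ± 40.6 CPM per kb. These levels and their order depend on the transcript chosen, and Atp5g1 was at 94.8 CPM per kb with its longest principal transcript and at 750 with its shortest. Uqcrq was at 266 with its longest and at 998 with its shortest. With the shortest transcripts it stood above Cox4i1 (994) and Atp5a1 (936).

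Members with short coding sequences had a lower median log2 fold change than those with long ones. This was noticed after the values were seen. Across the 41 genes the Spearman correlation of coding length with log2 fold change was 0.623, where genes share libraries and are not replicates. The 21 members of at most 387 bases had a median of -0.14 and the 20 longer ones -0.10. The same order was present in all genes with an annotated coding length (12437 genes, Spearman correlation 0.147). Of the 555 genes of at most 387 bases, members included, 72.1% were below 0 with a median of -0.10, against 49.0% of the 11882 longer genes with a median of 0.0038. Among genes at or above 30 CPM, 88.3% of 257 short genes were below 0, with a median of -0.13, against 64.8% of 3871 longer genes, with a median of -0.037. In the libraries, the mean of the shorter members minus that of the longer ones was -0.06, 0.0034, -0.0013 and -0.18 (log2, relative to WT) in T3TG replicates 1 to 4, against -0.16, 0.10, 0.08 and -0.01 in WT replicates 1 to 4. T3TG replicate 4 and WT replicate 1 were lowest, and the groups overlapped.

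**Figure D5:**
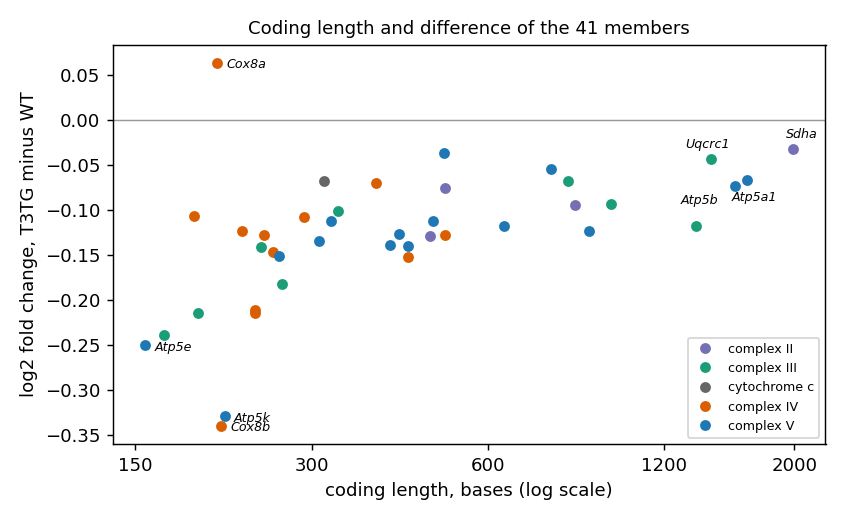
Coding length of each member in bases (log scale) against its log2 fold change, T3TG minus WT with TMM scaling, coloured by complex. The long members Sdha and Uqcrc1 lie near 0, and the lowest points, Cox8b and Atp5k, are short. Other members depart from this order, such as the long Uqcrc2 and Atp5c1, both at -0.12, and the short Cox8a, which lies above 0.

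Subunits encoded in mitochondrial DNA were counted as CYTB of complex III, COX1, COX2 and COX3 of complex IV, and ATP6 and ATP8 of complex V. The 5 that passed the filter were all below 0, from -0.25 to -0.09 with TMM scaling, and 0 passed the test. Without T3TG replicates 2 and 3, 4 of them were below 0 and COX3 was at 0.20. COX1, the catalytic subunit of complex IV, had 34032, 40200, 34464 and 31098 CPM in T3TG, against 37744, 30959, 42267 and 38302 CPM in WT, overlapping groups with a log2 fold change of -0.09 (SE 0.12). The rows of COX2, COX3 and ATP6 held between 7.06 and 85.2 CPM in single libraries and had SEs of 0.28, 0.61 and 0.54, so their differences were poorly measured, and ATP8 did not pass the filter.

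Genes that build the complexes but do not remain in them were taken from fixed lists. Of 37 tested assembly factors 29 (78.4%) were below 0 with a median of -0.09, against 50.9% of all genes with a median of -0.0043. In the edgeR test 0 passed, and 3 were lower at an unadjusted p under 0.05, against 2.45% of all genes. Uqcc3, which takes part in early assembly around cytochrome b, had 27.9, 25.5, 24.9 and 24.0 CPM in T3TG, against 28.8, 36.1, 35.7 and 27.0 CPM in WT (log2 fold change -0.31, SE 0.11, edgeR adjusted p = 0.418). Uqcc2, which with UQCC1 binds newly made cytochrome b, had 94.4, 74.7, 86.5 and 97.6 CPM in T3TG, against 79.1, 117, 133 and 118 CPM in WT (-0.34, SE 0.14, edgeR adjusted p = 0.561). In both, 3 WT libraries stood above all T3TG libraries. Sdhaf4, an assembly factor of complex II, had 23.1, 19.4, 22.2 and 17.7 CPM in T3TG, against 19.3, 23.0, 32.7 and 28.7 CPM in WT (-0.33, SE 0.15, edgeR adjusted p = 0.586). All 6 tested factors of complex III and all 4 of complex II were below 0, with medians of -0.22 and -0.14, while 15 of 22 factors of complex IV were, with a median of -0.02, and 3 of 4 of complex V, with a median of -0.04. The factors with the highest CPM within the lists of complexes II, III and V were Sdhaf2 (40.3 ± 2.67 CPM in T3TG and 43.5 ± 3.70 CPM in WT), Uqcc1 (106 ± 9.57 CPM in T3TG and 116 ± 4.67 CPM in WT), and Tmem70 (79.1 ± 6.35 CPM in T3TG and 77.7 ± 4.13 CPM in WT; SD, n = 4 each). Within the list of complex IV it was Coa5, with 121 to 138 CPM in T3TG and 114 to 154 CPM in WT. Hccs, which attaches haem to cytochrome c, had a log2 fold change of -0.02 (SE 0.09).

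Related subunits outside the 41 members were given by the same rule. Ndufa4, first assigned to complex I and now to complex IV, had 443, 500, 509 and 423 CPM in T3TG, against 462, 479, 615 and 570 CPM in WT (log2 fold change -0.18, SE 0.10). Usmg5, a small protein of the ATP synthase dimer, had 242, 290, 257 and 222 CPM in T3TG, against 222, 265, 372 and 319 CPM in WT (-0.22, SE 0.14). In both, WT replicates 3 and 4 were above all T3TG libraries.

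Promoters, 250 bases before to 50 after the start in RefSeq (GRCm38.p6), were at hand for 31 of the 41 members and searched on both strands for motifs of factors known to act on mitochondrial genes. The NRF1 motif, whose letters are the capitals in the Cox6a1 stretch below, was in 3 of 31 (9.68%), against 1.07% of 27025 genes. The ERR motif AAGGTCA was in 5 (16.1%, against 5.38%), the GABP motif CCGGAAGTG in 1 (3.23%, against 2.25%) and the YY1 motif AAGATGGCG in 2 (6.45%, against 1.64%). Atp5k holds both the NRF1 and the ERR motif, and a match is a description of the sequence and not a binding site. Stretches of 120 bases are shown for the isoforms in the ratios above, Cox8b (chr7:140900447-140900566, minus strand) and Cox6a1 (chr5:115349031-115349150, minus strand), and for Atp5g3 (chr2:73911327-73911446, minus strand), with motif letters in capitals.
Cox8b: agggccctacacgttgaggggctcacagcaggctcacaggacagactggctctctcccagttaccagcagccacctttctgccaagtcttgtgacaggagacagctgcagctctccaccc
Cox6a1: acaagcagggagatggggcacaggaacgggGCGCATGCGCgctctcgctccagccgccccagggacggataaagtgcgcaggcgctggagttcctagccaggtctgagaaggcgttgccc
Atp5g3: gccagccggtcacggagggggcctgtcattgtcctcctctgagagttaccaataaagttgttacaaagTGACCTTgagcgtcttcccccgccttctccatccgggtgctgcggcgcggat
The Cox8b stretch holds none of the 4 motifs, and the promoter of Cox8a, the other isoform of that pair, held none either. The Cox6a1 stretch holds the NRF1 motif 162 to 153 bases before the start. That of Atp5g3 holds the ERR motif on the other strand 52 to 46 bases before the start.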

How the data were processed

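PolyA RNA libraries of gastrocnemius muscle, 4 T3TG and 4 WT, were grouped by the genotype label. The deposited values are raw counts, 1 whole number for each symbol and library, not normalized by the authors. HISAT2 2.2.1, HTSeq 0.9.1, DESeq2 1.34.0 and the mm10 build are named in the submitters' processing notes. The annotation is not given in the sources used here, nor is the strand setting, so overlapping and antisense genes can share reads. Of 35976 rows, 27 are named by a date and no symbol (0.0885% to 0.0961% of counts) and were left out.

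After filterByExpr and TMM scaling, genes were compared by the edgeR 4.0.16 quasi-likelihood test (R 4.3.3, group as the only term, Benjamini-Hochberg over 14064 genes, threshold 0.05). SE is the absolute log2 fold change over the square root of F. Isoform ratios (0.5 added to counts) were compared by exact permutation. Alternatives used DESeq2 1.42.0, limma 3.58.1, other scalings and filters, a block on the leading title number, and left-out libraries. All pairs of libraries differed beyond sampling noise (lowest chi-square per degree of freedom 9.66). The edgeR script was tested on simulated counts.

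The members, gene lists and tests were chosen with earlier results of these data known. Named are, per complex, the 2 most abundant members and the 3 with the lowest p, Cycs, members with an unadjusted p under 0.05 or a positive value, the isoform pairs, and from each other list its most abundant gene and those with an unadjusted p under 0.05. Older names were matched through RefSeq synonyms (Acn9, Fmc1 and 1110058L19Rik). Transcript lengths and exact 150-base matches come from GENCODE M21.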

Additional observations from a re-analysis of the deposited data

Results flagged for a closer look

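Among 142 sets of 4 libraries checked, 4 held a library far from the other 3, by a criterion that chance meets in about 1 of 20 sets. Atp5h in T3TG replicate 4 was at 229 CPM, against 264 to 269 CPM in the other T3TG libraries. Tmem70 in T3TG replicate 3 was at 88.5 CPM, against 74.8 to 76.7 CPM. Hccs in WT replicate 3 was at 33.8 CPM, against 38.4 to 38.9 CPM in the other WT libraries. The red cell marker sum in T3TG replicate 3 was 523 CPM, against 67.6 to 79.3 CPM in the other T3TG libraries.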

How the results depend on the processing

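The count of 0 members called held in every alternative run, and 37 to 40 members were below 0 in each except scaling by muscle fiber markers (28). Leaving out 1 library gave 38 to 40 members below 0 and medians from -0.15 to -0.02 (complex II), -0.18 to -0.08 (III), -0.20 to -0.09 (IV) and -0.17 to -0.07 (V). The count of all genes called, 10, was 52 with library totals, 118 with muscle fiber scaling, 107 with no filter and 105 with DESeq2. It was 4 with the block on the first title number, 0 without T3TG replicates 2 and 3, and 0 to 37 with 1 library left out. The cause was not tested.

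With muscle fiber scaling the complex II median was 0.0139, and the log2 fold changes turned positive for Sdha (0.0683), Sdhb (0.000792), Sdhc (0.0271), Uqcrc1 (0.0592), Uqcrfs1 (0.0298), Atp5b (0.0292), Atp5a1 (0.032), Cycs (0.0336), Cox4i2 (0.109), COX1 (0.0119) and Hccs (0.0852). With library totals they did for Sdha (0.0167), Uqcrc1 (0.00766), Cox4i2 (0.0496) and Hccs (0.0318). With the block on the first title number Cox4i2 was at 0.101, Coa5 at 0.00644, Tmem70 at -0.00279 and the Cox4i2/Cox4i1 ratio at 0.129. Without T3TG replicates 2 and 3, Sdha was at 0.0499 and Tmem70 at -0.0399. With 1 library left out, Sdha ranged from -0.0858 to 0.0071, Sdhc ranged from -0.138 to 0.0040, Cox4i2 ranged from -0.341 to 0.23, Tmem70 ranged from -0.0324 to 0.0526, Hccs ranged from -0.0664 to 0.0203, the Cox4i2/Cox4i1 ratio from -0.313 to 0.293 and Atp5g1/Atp5g3 from -0.0555 to 0.0332. Cox6a2/Cox6a1 lay within -0.464 to -0.319 and Cox8b/Cox8a within -0.457 to -0.345.

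The first title number is shared by 4 pairs of libraries across the groups, but these are not separate matched pairs. T3TG replicates 2, 3 and 4 and WT replicate 4 all carry the number 6. T3TG replicate 1 and WT replicate 2 carry the number 2. The same WT library thus recurs in most pairs, and the number is unevenly spread over the genotypes. Deviations of these pairs correlated at -0.05 to 0.15, against -0.19 to 0.08 in 12 other pairs. The meaning of the number is not given, and whether libraries that share it come from the same source was not tested. Depth did not limit the members, whose lowest count was 553. The 8 libraries and their spread set the intervals.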
